A study of Mus musculus with 22 samples.

Results

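The 49 silent protein-coding genes of the segment that Ts66Yah mice carry in an additional copy were examined in 22 RNA-Seq libraries. They were chosen by a rule on their level: of the 135 protein-coding genes of chromosome 16 that start at or after Mir155 (position 84714140, GRCm38) and are in the count table, those with a mean under 0.2 counts per 1000000 counts of the library (CPM) over all libraries were taken, and 9 genes were left out by name. Their low level is therefore what selected them and is given as a description only. The comparisons between genotypes and between regions did not enter the rule. The mean in the rule does include the Ts66Yah libraries. A gene well above the limit in Ts66Yah alone would thus be left out.

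Each of 11 male mice gave 1 library of the hippocampus (HIP) and 1 of the entorhinal cortex (EC). There were 5 wt animals, littermates with 2 copies of the segment, and 6 Ts66Yah animals, which in addition carry a freely segregating minichromosome with the segment. Both genotypes were on the F1B6C3B mixed background and 5 to 6 months old, and the Ts66Yah line descends from 1 founder in which CRISPR/Cas9 removed the centromeric Mmu17 part of the Ts65Dn minichromosome. The comparison asked whether an additional copy of a gene that is silent in these regions yields any transcript. Total counts were between 25.9 M and 50.1 M per library (M, counts in units of 1000000) with a median of 34.7 M, and summed to 779.4 M.

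Most of these genes encode keratin-associated proteins, the small proteins, rich in cysteine or in glycine and tyrosine, that form the matrix between the keratin filaments of the hair shaft and are made by the hair follicle late in its differentiation. Their genes lie in clusters of short genes without introns. The rest include claudins, which seal or form pores in epithelial tight junctions, and single genes known from epithelium, heart, pancreas or blood cells rather than from neurons.

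The Krtap cluster held 38 of the 49 genes. It spanned 960.5 kb, from position 88610705 to 89571183 of chromosome 16, and no protein-coding gene of the table within it stood above the limit. Of the 38 genes, 24 carried a Krtap symbol and 14 a Gm or Rik symbol. An exon model of 1 block was annotated for 35 of them, and their exonic length had a median of 594.5 bases, from 159 in Gm7735 to 1575 in Krtap24-1. The genes outside the cluster were Cldn17, Cldn8, Gm21970, Atp5o (the Ensembl entry ENSMUSG00000116933, not the main gene of that symbol), Gm49711, Fam243, Kcne1, Igsf5 (the entry ENSMUSG00000117081), Itgb2l, Fam3b and Tmprss2.

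Promoter sequence was shown for genes that represent the states found in the counts. RefSeq promoters (GRCm38.p6) were matched for 35 of the 38 cluster genes and for 4 of the 11 others, with a RefSeq start at most 1000 bases from the annotated one. The 90 bases before the start are printed 5′ to 3′ on the gene's strand, with the letters TATAAA in capitals where they lay 45 to 16 bases before the start. Krtap8-1 (chr16:89487953-89488042, minus strand) and Krtap11-1 (chr16:89571184-89571273, minus strand) had reads in both genotypes:
Krtap8-1: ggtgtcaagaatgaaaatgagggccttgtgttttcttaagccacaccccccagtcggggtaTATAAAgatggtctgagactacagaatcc
Krtap11-1: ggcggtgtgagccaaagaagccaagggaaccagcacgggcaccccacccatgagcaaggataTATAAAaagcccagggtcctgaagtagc
Krtap26-1 (chr16:88647797-88647886, minus strand) and Krtap16-3 (chr16:88962874-88962963, minus strand) had no read in any library:
Krtap26-1: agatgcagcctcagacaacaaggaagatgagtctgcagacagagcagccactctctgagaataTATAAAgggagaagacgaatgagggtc
Krtap16-3: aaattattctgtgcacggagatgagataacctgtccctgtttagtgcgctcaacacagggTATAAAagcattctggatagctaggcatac
Gm10228 (chr16:89041473-89041562, minus strand) and 1110025L11Rik (chr16:89064003-89064092, minus strand) also had no read, and are shown because they are near copies, with the same letters in the 51 bases before the start:
Gm10228: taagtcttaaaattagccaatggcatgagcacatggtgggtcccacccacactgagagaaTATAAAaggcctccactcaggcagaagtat
1110025L11Rik: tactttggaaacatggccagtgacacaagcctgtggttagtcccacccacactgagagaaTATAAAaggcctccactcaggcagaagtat
Itgb2l (chr16:96443615-96443704, minus strand) and Tmprss2 (chr16:97611196-97611285, minus strand) lie outside the cluster and had reads in most libraries:
Itgb2l: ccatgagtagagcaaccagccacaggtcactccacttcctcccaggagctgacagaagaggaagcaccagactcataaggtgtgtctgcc
Tmprss2: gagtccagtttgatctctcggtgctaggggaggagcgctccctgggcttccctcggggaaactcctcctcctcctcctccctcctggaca

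TATAAA was found in that window, on the gene's strand, in 16 of the 35 cluster promoters (45.7%) and in 0 of the 4 others. All cluster promoters printed above are among those 16, so they do not represent the cluster in this respect. Krtap7-1, the cluster gene with the most reads, had no matched promoter. TATAAA was in the same window in 22 of 28 promoters of Krtap genes elsewhere in the genome (78.6%). It was there in 2 of 57 promoters of expressed genes of the same segment (3.51%) and in 702 of all 32851 promoters (2.14%). Anywhere in the 250 bases before the start, the letters were in 27 of the 35 cluster promoters (77.1%) and in 7.59% of all promoters. CCAAT, searched on both strands as CCAAT or ATTGG in the 250 bases letters that can overlap TATAAA by 1 base, was in 8 of the 35 (22.9%) and in 33.9% of all. The cluster promoters had a median of 2 CG dinucleotides per 250 bases (0 to 6), the expressed genes of the segment 23 and all promoters 6. These are descriptions of sequence and show no binding.

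The counts were close to nothing in both genotypes. Of the 49 genes, 35 had 0 reads in all 22 libraries, which for the 32 with exons not wholly shared with another gene allows up to 0.00385 CPM of countable reads (3 counts of the total), or 0.00841 CPM in the 10 wt and 0.0071 CPM in the 12 Ts66Yah libraries. In Ts66Yah alone, 38 genes had 0 reads, and in wt 35. Reads in both genotypes were found for 11 genes, reads only in wt for 3, and reads only in Ts66Yah for 0. No gene of the list without a read in wt thus had one in Ts66Yah. The rule limits what this 0 can show, since a gene silent in wt but well above the limit in Ts66Yah was not eligible. Genes with wholly shared exons could not show such a gain either. The 3 genes with reads only in wt were Krtap24-1, Gm20741 and Krtap19-9b, each with 1 read. All limits and intervals given here cover counting error only, since reads without molecular identifiers are not independent molecules.

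**Figure D1:**
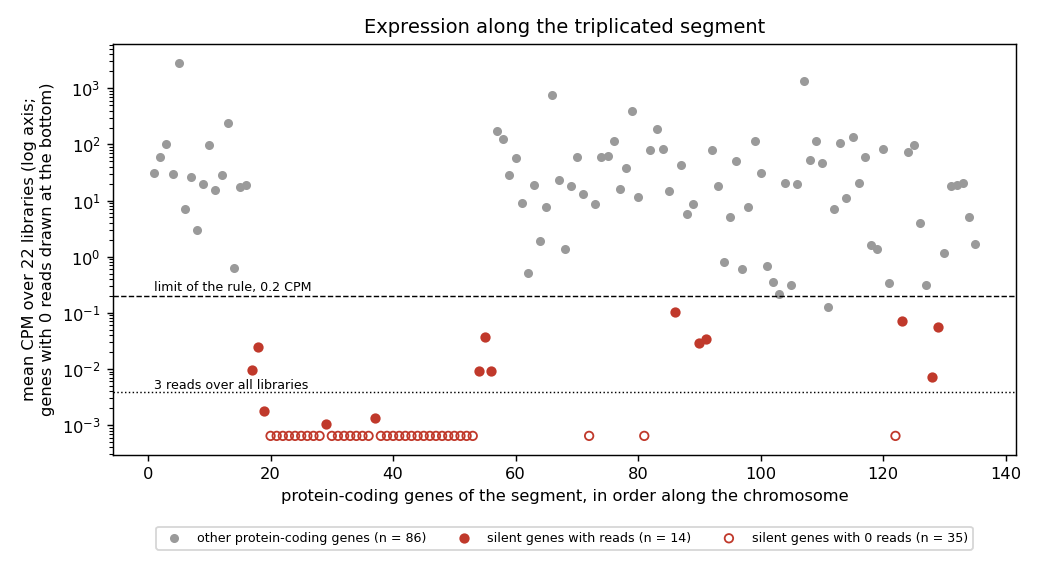
Mean CPM over the 22 libraries (log axis) of the 135 protein-coding genes of the segment in their order along the chromosome; open red circles had 0 reads and are drawn at the bottom, and grey points are other genes, Kcnj15 among them under the limit. The run of open circles is the Krtap cluster, where 32 of 38 genes had 0 reads.

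Over all silent genes and libraries, 314 reads were counted (0.403 CPM of the pooled libraries). Within the Krtap cluster, 32 of 38 genes had 0 reads (84.2%) and 47 reads were counted in all, 44 of them in 3 neighbours at its distal end, Krtap7-1 (29 reads), Krtap11-1 (8) and Krtap8-1 (7). The other 35 cluster genes shared 3 reads. With 0 reads stood 4 genes of the Krtap6 family (Krtap6-1, Krtap6-2, Krtap6-3 and Krtap6-5) and 5 of the Krtap19 family (Krtap19-1, Krtap19-2, Krtap19-3, Krtap19-4 and Krtap19-5). The other Krtap symbols at 0 were Krtap13, Krtap13-1, Krtap14, Krtap15, Krtap16-3, Krtap20-2, Krtap21-1, Krtap22-2, Krtap26-1 and Krtap27-1. Also at 0 were 13 genes with Gm or Rik symbols, namely Gm5965, Gm6358, Gm7735, Gm9789, Gm10061, Gm10228, Gm10229, 1110025L11Rik, 1110057P08Rik, 2310034C09Rik, 2310057N15Rik, 2310061N02Rik and 2310079G19Rik. The only read of the Krtap6 and Krtap19 families was that of Krtap19-9b in wt. For comparison, 25 of 33 Krtap genes elsewhere had 0 reads (75.8%), as had 2517 of 6161 silent protein-coding genes of all autosomes outside the segment (40.9%) and 50 of the 141 on chromosome 16 before the segment (35.5%), chosen by the same limit. Hair shaft keratins, the partners of these proteins in hair, were near 0 too, and the 9 of 10 markers in the table summed to 0 to 0.176 CPM in a library. Other lists of hair and skin were not near 0: the 7 inner root sheath markers summed to 6.54 to 13.7 CPM, nearly all of it from Tchh and Krt73, and the 6 epidermis markers to 6.77 to 19.6 CPM, mostly from Krt10, Krt1 and Lor.

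A count of 0 has another meaning where reads cannot be assigned to 1 gene. Gm21970, the Atp5o entry and the Igsf5 entry had 0 reads, and all of their exonic bases were shared on the same strand with exons of other genes, Ifnar2 and Il10rb for Gm21970. A read there is ambiguous to a counter that assigns reads to 1 gene, so the 0 of these 3 genes says nothing of their transcript. In the cluster, 9 of the 32 genes with 0 reads shared no 50-base stretch with another annotated transcript, and 31 shared under 50% of theirs. The exception was Gm7735, with 88.2% of its 50-base stretches also in Gm9789, and Gm10228 shared 41.7% with 1110025L11Rik. How reads that map to several places were treated is not given in the sources used here.

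Just inside the limit stood Gm49711 (0.102 CPM), Itgb2l (0.0703) and Tmprss2 (0.0569), and just outside it Sim2 (0.217), Mx1 (0.311) and Ripply3 (0.315). Of the 9 genes left out by name, 8 were found as protein-coding genes of the segment, from Kcnj15 at 0.126 CPM, under the limit, to Clic6 at 18.4 CPM.

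**Figure D2:**
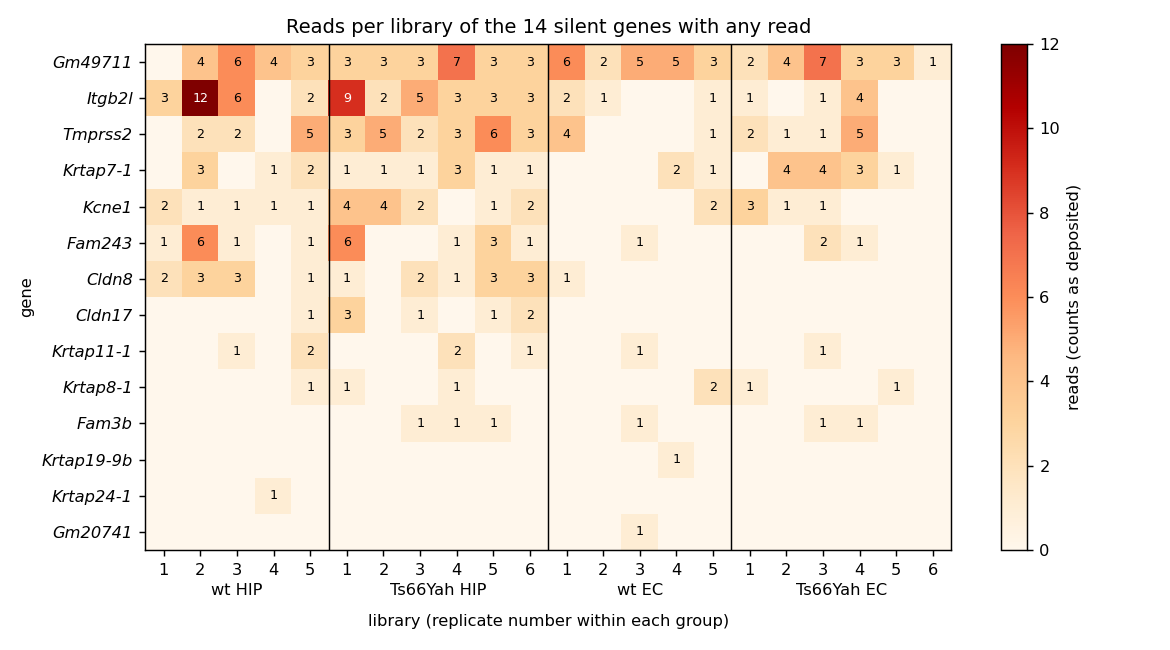
Reads as deposited of the 14 silent genes with any read (rows) in each of the 22 libraries (columns, by group and replicate), with empty cells for 0 reads. No library had more than 12 reads of a gene, and 11 of the 14 genes have reads in both genotypes.

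Of the 49 genes, 6 had at least 22 reads in all, 1 per library on average, and together held 262 of the 314 reads (83.4%). Krtap7-1, a keratin-associated protein of the glycine and tyrosine rich kind, had 0, 3, 0, 1 and 2 reads in the wt HIP libraries and 1 to 3 with a median of 1 in the 6 Ts66Yah HIP libraries. In the EC it had 0, 0, 0, 2 and 1 reads in wt and 0 to 4 with a median of 2 in Ts66Yah. The groups overlapped in both regions. Pooled, it had 9 reads in wt and 20 in Ts66Yah, 1.88 times as many relative to depth, with a 95% counting interval of 0.817 to 4.68. Per length it had 46.7 reads per kb of exon, against 12.2 in its neighbour Krtap8-1 and 7.94 in Krtap11-1.

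Tmprss2, a transmembrane serine protease of airway, prostate and gut epithelium, had 0, 2, 2, 0 and 5 reads in wt HIP and 2 to 6 with a median of 3 in Ts66Yah HIP. In the EC it had 4, 0, 0, 0 and 1 reads in wt and 0 to 5 with a median of 1 in Ts66Yah. All 6 Ts66Yah HIP libraries had reads against 3 of 5 in wt, but the highest wt library lay within the Ts66Yah range. Pooled over both regions there were 14 reads in wt and 31 in Ts66Yah, a ratio of 1.87 (0.966 to 3.81).

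Kcne1, an accessory subunit of a potassium channel of heart and inner ear, had 2, 1, 1, 1 and 1 reads in wt HIP and 0 to 4 with a median of 2 in Ts66Yah HIP. In the EC it had 0, 0, 0, 0 and 2 reads in wt and 0 to 3 with a median of 0.5 in Ts66Yah. The groups overlapped, and the 8 reads in wt and 18 in Ts66Yah gave a ratio of 1.90 (0.786 to 5.05).

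Gm49711 had the most reads, 80, and 35.9% of its exonic bases were shared on the same strand with exons of other genes, Mrps6 among them. It had 0, 4, 6, 4 and 3 reads in wt HIP and 3 to 7 with a median of 3 in Ts66Yah HIP, and in the EC 6, 2, 5, 5 and 3 in wt and 1 to 7 with a median of 3 in Ts66Yah. Its reads were spread over nearly all libraries and overlapped between genotypes. The 38 reads in wt and 42 in Ts66Yah gave a ratio of 0.934 (0.588 to 1.488). This interval, of counting error only, holds 1 and ends just below 1.5.

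Itgb2l, an integrin beta subunit related to that of leukocytes, had 3, 12, 6, 0 and 2 reads in wt HIP and 2 to 9 with a median of 3 in Ts66Yah HIP. In the EC it had 2, 1, 0, 0 and 1 reads in wt and 0 to 4 with a median of 0.5 in Ts66Yah. The genotypes overlapped, with 27 reads in wt and 31 in Ts66Yah (ratio 0.970, 0.560 to 1.69). Fam243 had 1, 6, 1, 0 and 1 reads in wt HIP and 0 to 6 with a median of 1 in Ts66Yah HIP, and in the EC 0, 0, 1, 0 and 0 in wt and 0 to 2 with a median of 0 in Ts66Yah. Its 10 reads in wt and 14 in Ts66Yah gave a ratio of 1.18 (0.489 to 2.98), and the groups overlapped.

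The remaining genes with reads had fewer. Cldn8, a claudin of kidney and gut epithelium, had 10 reads in each genotype. Cldn17, a claudin that forms an anion pore, had 1 read in wt and 7 in Ts66Yah, all in HIP, a ratio of 5.91 (0.760 to 266.5). Fam3b, a secreted protein of pancreatic islets, had 1 and 5 reads (4.22, 0.473 to 199.7). Krtap11-1 had 4 in each genotype, and Krtap8-1 had 3 and 4. Each of these intervals contains both 1 and 1.5, the ratio of 3 copies to 2.

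No single gene passed a test between genotypes. In the edgeR quasi-likelihood test over all genes with a count, 12 of the 49 genes could be fitted in HIP, 12 in EC and 14 with both regions of an animal summed, and 0 had an adjusted p under 0.05 in any of the 3 fits. At an unadjusted p under 0.05 there were also 0, where 8.23% of all genes fitted in HIP, 5.07% in EC and 7.32% with both summed had such a p. DESeq2 could call almost none of them, since it gave an adjusted p to 0 genes in HIP, 1 in EC and 0 with both regions summed. Over all genes fitted, the percentage called was 0.358% in HIP, 0.169% in EC and 0.304% with both summed, so a count of 0 among 12 or 14 genes lies near the background. With both regions summed, Tmprss2 was at 0.87 on the log2 scale (SE 0.553, edgeR adjusted p 0.692), that of Kcne1 0.88 (SE 0.710) and that of Krtap7-1 0.84 (SE 0.721), the last 2 with the same adjusted p. Gm49711 and Itgb2l were at -0.10 (SE 0.351) and -0.038 (SE 0.558). Each SE here is approximate, since it was derived from the log2 fold change and the test statistic. With so few reads, a difference as large as that in copy number could be missed for these genes.

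The summed level of the 49 genes was compared with no test, since the list was chosen with results known. In HIP it was 0.284, 0.788, 0.399, 0.270 and 0.549 CPM in wt and 0.454 to 0.841 with a median of 0.526 in Ts66Yah. The means were 0.458 ± 0.216 (SD, n = 5) and 0.575 ± 0.147 (SD, n = 6), and the groups overlapped. In EC the libraries had 0.392, 0.0893, 0.209, 0.235 and 0.288 CPM in wt and 0.0332 to 0.493 with a median of 0.284 in Ts66Yah, with means of 0.243 ± 0.111 (SD, n = 5) and 0.284 ± 0.173 (SD, n = 6). The Ts66Yah mean was thus higher in both regions by less than 1 SD. Per animal over both regions the level was 0.358 ± 0.0857 CPM in wt (SD, n = 5) and 0.438 ± 0.0913 in Ts66Yah (SD, n = 6).

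**Figure D3:**
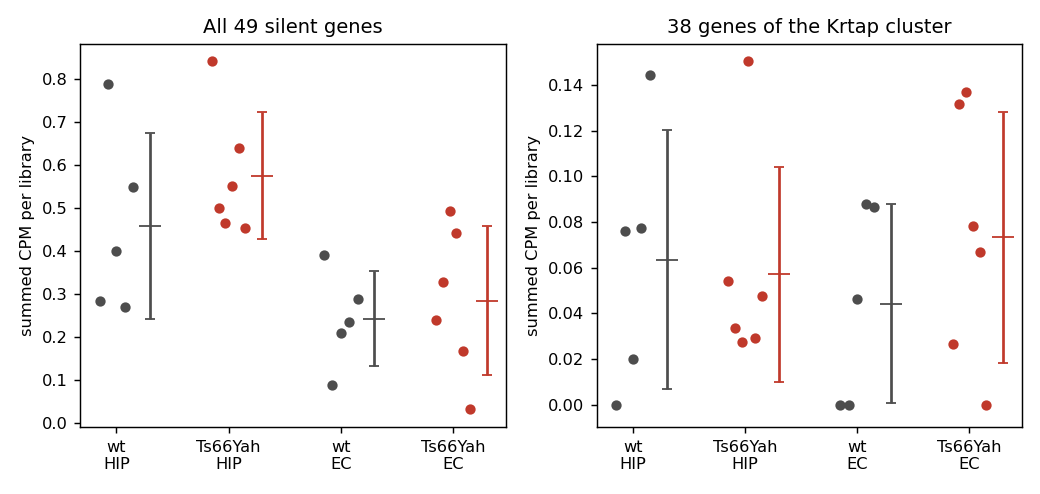
Summed CPM per library (points) of all 49 silent genes (left) and of the 38 Krtap cluster genes (right) in the 4 groups, with the mean and SD beside each group. The wt and Ts66Yah points overlap in each region, and the HIP points of all 49 genes lie higher than most EC points.

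Pooled reads of all 49 genes gave ratios between 1, the value of an unchanged gene, and 1.5, that of the copy number. Over both regions, wt had 128 reads and Ts66Yah 186, a depth-scaled ratio of 1.23 with an interval of 0.975 to 1.55. In HIP the reads were 85 and 126 (1.20, 0.907 to 1.60) and in EC 43 and 60 (1.23, 0.817 to 1.86). The Krtap cluster had 19 and 28 reads (1.25, 0.671 to 2.36), with a ratio of 0.959 in HIP (11 and 13 reads, 0.397 to 2.37) and 1.65 in EC (8 and 15 reads, 0.657 to 4.50), and the 11 genes outside it 109 and 158 (1.22, 0.953 to 1.58). These intervals hold both 1 and 1.5. That of the whole list rests in part on Gm49711, which had 38 reads in wt and 42 in Ts66Yah. Without it the Ts66Yah over wt ratio of mean summed levels over both regions was 1.35, against 1.22 with it. A counting interval without Gm49711 was not computed.

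The interval of the pooled ratio was narrow where there were more reads. The 75 protein-coding genes of the segment with a mean of at least 1 CPM had a pooled ratio of 1.496 over both regions (1.493 to 1.498). Gene by gene, their Ts66Yah over wt ratio of mean levels had a median of 1.49 (quartiles 1.415 and 1.563), and all 75 were above 1. Silent genes outside the segment had a pooled ratio of 1.01 (1.003 to 1.03) on all autosomes and 0.998 (0.932 to 1.07) on chromosome 16 before the segment. Krtap genes elsewhere, which are not in additional copy, had 7 reads in wt and 17 in Ts66Yah, a ratio of 2.05 (0.809 to 5.85). By region their ratio was 0.812 in HIP (5 and 5 reads, 0.187 to 3.53) and 5.28 in EC (2 and 12 reads, 1.18 to 48.6). A ratio above 1.5 at such counts was thus also seen without an additional copy, in EC with an interval above 1. The difference between these ratios and that of the silent genes of the segment was not tested.

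**Figure D4:**
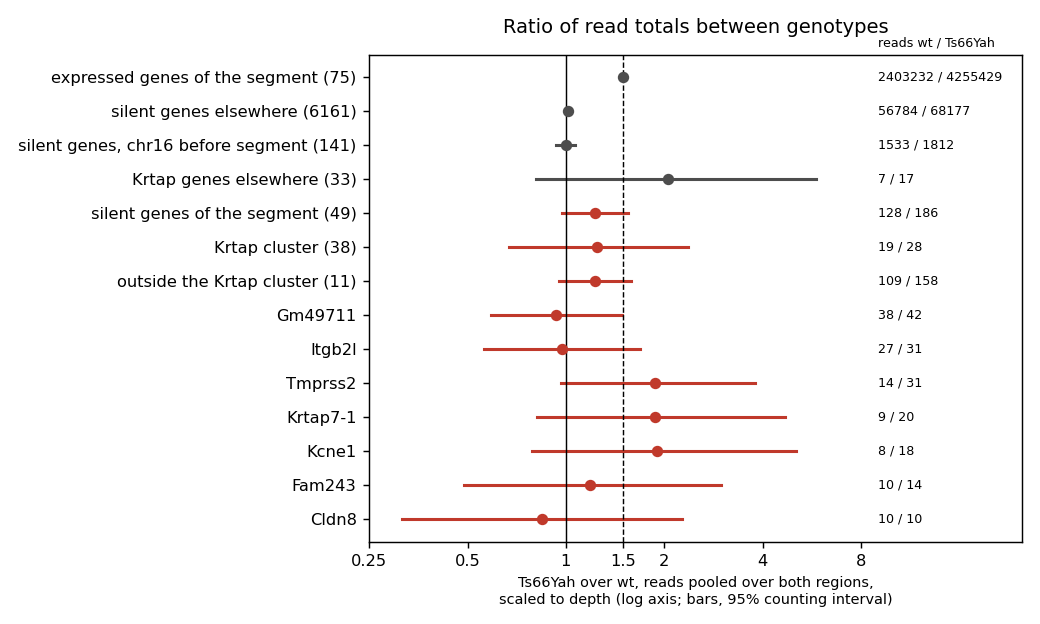
Ts66Yah over wt ratio of reads pooled over both regions and scaled to depth (log axis), with 95% counting intervals, for comparison lists (grey) and for the silent genes of the segment and those with at least 20 reads (red); reads of wt and Ts66Yah are printed at the right. The expressed genes of the segment lie at 1.5 (dashed line), the silent genes outside the segment at 1 (solid line), and the interval of the 49 silent genes, 0.975 to 1.55, holds both.

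Most of the reads lay in HIP. The 49 genes had 211 reads in HIP and 103 in EC, 1.97 times as many relative to depth (1.55 to 2.51), and 9 of 11 animals had the higher level in HIP. In the Krtap cluster the reads were 24 and 23, a ratio of 1.001 (0.541 to 1.86). Silent genes of all autosomes outside the segment had a HIP over EC ratio of 1.23 (1.22 to 1.24), and those of chromosome 16 before the segment 1.36 (1.27 to 1.46).

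With the animal as a block, edgeR called 2 of the 14 genes fitted, both lower in EC, where 36.4% of all genes fitted were called. At an unadjusted p under 0.05 there were 3, against 41.1% of all genes fitted. Itgb2l had 48 reads in HIP and 10 in EC, which in edgeR was -1.998 on the log2 scale with an SE of 0.589 (adjusted p 0.00452), and was higher in HIP in 9 of 11 animals. Cldn8 had 19 reads in HIP and 1 in EC, -2.99 (SE 0.994, edgeR adjusted p 0.0127), and was higher in HIP in 9 of 11 animals, with no read in either region in the other two. By library, Cldn8 had 2, 3, 3, 0 and 1 reads in wt HIP and 0 to 3 with a median of 1.5 in Ts66Yah HIP, and its 1 EC read was in a wt library. DESeq2 called Itgb2l and gave Cldn8 no adjusted p. Cldn17, the other claudin, had 8 reads in HIP and 0 in EC but did not pass (edgeR adjusted p 0.117).

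Markers of the choroid plexus, the epithelium that secretes cerebrospinal fluid, were also higher in HIP than in EC. All 7 of 7 markers had reads, none was at 0, and their summed level was 116 to 3492 CPM in wt HIP, 787 to 2934 in Ts66Yah HIP, 9.86 to 41.8 in wt EC and 9.99 to 14.6 in Ts66Yah EC. Over all libraries, Ttr held most of that sum (mean 761.5 CPM, against 34.7 for the next, Kl). The wt HIP library with the highest marker level, replicate 2 (39.4 M counts), also had the most Itgb2l reads (12). The one with the lowest marker level, replicate 4, had 0 reads of Itgb2l and of Cldn8, at the lowest total count of all libraries (25.9 M). The order did not hold in between: wt HIP replicate 5, at 2553 CPM of the markers, had 2 reads of Itgb2l and 1 of Cldn8, whereas replicate 3, at 1495 CPM, had 6 and 3. In Ts66Yah HIP, replicate 1 had the highest marker level, 2934 CPM, with 9 reads of Itgb2l and 1 of Cldn8. Replicate 2 had the lowest, 787 CPM, with 2 of Itgb2l and 0 of Cldn8, and replicate 6, at 792 CPM, had 3 of each. Both genes were still called in each of the 11 fits that left out 1 animal. Neutrophil markers, all 8 of them with reads, moved the other way, with 0.254 to 1.34 CPM in HIP and 0.968 to 4.52 in EC over both genotypes. The part of either cell type in the result was not tested, and in tissue libraries fewer cells of a type and less RNA per cell cannot be told apart. Hippocampal markers summed to 681 to 874 CPM in HIP and 65.1 to 108 in EC, and cortical markers to 102 to 144 and 297 to 403 CPM, as the region labels have it.

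**Figure D5:**
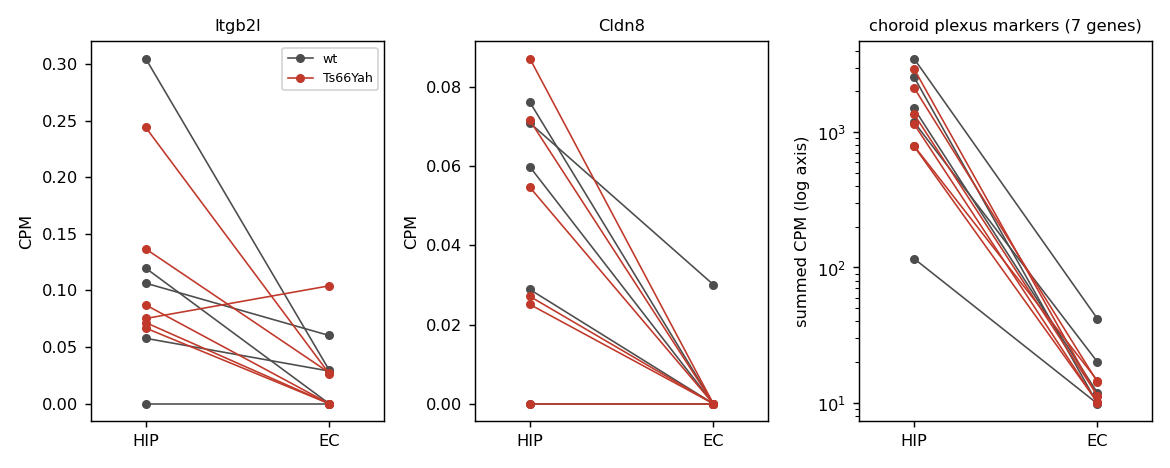
CPM of Itgb2l and Cldn8 and summed CPM of 7 choroid plexus markers (log axis) in the HIP and EC library of each of the 11 animals, joined by lines (wt grey, Ts66Yah red). Itgb2l and Cldn8 were each higher in HIP in 9 of 11 animals, and the markers in all 11.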

How the data were processed

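RNA-Seq counts of 22 libraries from 11 mice were used. According to the study's methods, single-end reads of 50 bases were aligned with Hisat2 to GRCm38 and counted per Ensembl gene with HTSeq-count; its strand setting and treatment of multi-mapped reads are not given in the sources used here. The labels name mm10 and bcl2fastq 2.17.1.14. They describe a poly(A) kit, whereas the methods name a total RNA kit with ribosomal depletion and polyA RNA. The authors deposited these as raw counts per gene, with all columns matched to samples (0 unmapped). The authors' DESeq2 and FCROS result tables hold base means, fold changes and p-values of their own comparisons and were not used.

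Of 55385 gene rows, 55144 matched GENCODE vM21, which gave biotype, position and exons. Levels are CPM on raw library totals, which were 25.9 M to 50.1 M. Tests were edgeR 4.0.16 quasi-likelihood fits with TMM factors (R 4.3.3) on every gene with at least 1 count in the fit, with Benjamini-Hochberg adjustment over all genes fitted and a threshold of 0.05. Genotype was tested in HIP, in EC and on the 2 libraries of each animal summed, and region with the animal number of the labels as a block. The SE given with an edgeR log2 fold change is its size divided by the square root of the F statistic. It is approximate and least reliable where the log2 fold change is near 0. DESeq2 1.42.0, RLE factors, other limits and leaving out each library or animal were alternatives. Ratios of pooled counts carry exact 95% binomial intervals. The scripts were tested on simulated data in which only genes with more reads than the silent genes were changed. That run does not check the test at counts as low as theirs. Replicates are separate animals.

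The genes and lists were chosen with earlier results of these data known. Every gene of the list was named. For genes with at least 22 reads or past a threshold, values were given by library in wt and as range and median in Ts66Yah. Expressed genes are those with a mean CPM of at least 1. Promoters are RefSeq's, 250 bases before to 50 after the start. Shared sequence was counted in 50-base windows over annotated transcripts.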

Additional observations from a re-analysis of the deposited data

Results flagged for a closer look

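Values were examined for a library far from the rest of its group in 36 sets of libraries, and 9 values stood apart. The rule behind this flags about 1 in 20 groups by chance where values vary continuously, a rate that does not carry over to counts of a few reads, where 1 library with reads among libraries with none is enough. In Ts66Yah HIP, replicate 2 had reads for 5 of the silent genes, the fewest of its group, and replicate 4 had the highest levels of Krtap7-1 (0.0753 CPM) and Gm49711 (0.176 CPM). In wt HIP, replicate 2 had the highest Fam243 (0.152 CPM). In wt EC, the only library with Fam243 reads was replicate 3 (0.0232 CPM), the only one with Kcne1 reads replicate 5 (0.0576 CPM) and the only one with a Cldn8 read replicate 1 (0.0301 CPM), and replicate 1 also had the highest Tmprss2 (0.121 CPM). In Ts66Yah EC, replicate 4 had the highest Itgb2l (0.104 CPM).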

How the results depend on the processing

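Of the genotype fits, each alternative that gave a value called 0 of the silent genes in HIP, in EC and with both regions summed. These were RLE factors, all 22 libraries in one fit for each region, the replicate block (0, 0 and 0 calls) and the fits without 1 library or animal (0 to 0 calls). DESeq2 gave an adjusted p to 0 of 12 genes in HIP, 1 of 12 in EC and 0 of 14 with both summed. A gene without an adjusted p cannot be called, so its 0 calls decide nothing for nearly all of them. At an unadjusted p under 0.05, the fits that left out 1 library or animal had up to 2 genes in HIP, 1 in EC and 2 with both summed. The usual filter on low counts (filterByExpr) left none of the silent genes in any fit, so that alternative gave no value. The replicate numbers did not pair animals across genotypes: correlations of same-numbered libraries were -0.04 to 0.339 and not all above 0.1 in either region. For the region effect, DESeq2 called 1 gene (Itgb2l), with no adjusted p for Cldn8, and the fit with no replicate block called 3, adding Fam243; leaving out each animal gave 2 to 2 calls, Itgb2l and Cldn8 in all 11 fits. Over the alternatives that gave one, the adjusted p was 0.00107 to 0.0237 for Itgb2l and 0.000997 to 0.0337 for Cldn8.

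The Ts66Yah over wt ratio of mean summed levels was 1.26 in HIP (1.14 to 1.53 leaving out each library), 1.17 in EC (0.999 to 1.38) and 1.22 over both (1.14 to 1.33). In HIP it was 0.898 over the Krtap cluster alone, a move larger than the relative spread of the whole list between libraries. The cluster's own relative spread was wider, with 0.06355 ± 0.0566 CPM in wt (SD, n = 5) and 0.05705 ± 0.04702 in Ts66Yah (SD, n = 6). The groups overlapped, on 11 and 13 reads, and the counting interval of the pooled cluster ratio, 0.397 to 2.37, holds 1.26. Whether the move exceeds counting error was not tested. In EC the ratio of mean summed levels was 1.49 without the gene with the most reads, Gm49711. It was 1.68 without the 3 genes with the most reads and 1.66 over the cluster alone. Over both regions it was 1.35 without Gm49711 and reached 1.41 without those 3 genes. These moves and those of the other settings were under 1 SD of the Ts66Yah libraries relative to the wt mean, which is wide in EC. Of the 14 uncalled log2 fold changes between genotypes over both regions, 6 changed sign under some alternative, 3 of them of genes with at least 22 reads. With the replicate block, Gm49711 was at 0.017 and Itgb2l at 0.21, and leaving out each animal gave -0.22 to 0.043 for Gm49711, -0.25 to 1.14 for Fam243 and -0.32 to 0.56 for Itgb2l; those of Cldn8, Krtap8-1 and Krtap11-1, with fewer reads, also changed sign without single animals. Depth limits all of this, since 314 reads were spread over 14 genes.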
